A study of Mus musculus with 2 samples.

Results

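Complex I of the respiratory chain (NADH:ubiquinone oxidoreductase) is built from subunits encoded in the nucleus and subunits encoded by mitochondrial DNA. The nuclear subunit genes were measured here in mouse calf muscle. They were taken by symbol, as every gene named Ndufa, Ndufb, Ndufc, Ndufs or Ndufv followed by a digit, together with Ndufab1, that has a protein-coding transcript; assembly factors (Ndufaf) and pseudogenes were left out. The rule gave 38 of 55536 annotated genes. All 38 had a row in both gene tables and all 38 were detected at 1 TPM (the deposited transcript level, corrected for transcript length and scaled to the library) or more in both libraries, so no member was lost to a filter.

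Total RNA came from the gastrocnemius of female B6CASTF1/J mice, an F1 hybrid strain, at 36 days of age. The data form 1 group of 2 libraries, numbered as replicates 1 and 2. Each used 300 ng of RNA and ERCC spike-in RNAs, and no treatment, mutant or second tissue is included. The labels call them biological replicates and number the tissue samples differently, but they name a single donor entry and do not state separate animals, and how much of the spread is technical is not known. There is no contrast between conditions, and no test or p-value is given.

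Complex I takes electrons from NADH in the mitochondrial matrix, passes them along iron-sulfur clusters to ubiquinone and pumps protons across the inner membrane. The matrix arm holds the N module, where NADH is oxidised, and the Q module, where ubiquinone is reduced; the membrane arm holds the proton pumps, whose core subunits are all encoded by mitochondrial DNA. Around the core subunits, which have bacterial counterparts, lie accessory subunits that stabilise the complex and are needed for its assembly. Skeletal muscle relies on the complex most in its oxidative fibres.

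Depth was 37735687 estimated counts for replicate 1 and 40656175 for replicate 2. The 38 genes took 0.307% and 0.377% of the counts given to genes. The libraries stood apart in the make-up of the tissue. The 12 slow fibre markers summed to 27.6 TPM in replicate 1 and 3159 in replicate 2, with none at 0 counts, and Myh7, the slow myosin heavy chain, had 28.1 and 61949 counts. The 12 fast fibre markers, which define this mostly fast muscle, summed to 115757 and 84803 TPM, and 8 of them were over 20% lower in replicate 2 while Myh1 and Myh2, the heavy chains of the more oxidative fast fibres, were higher. The 10 fat cell markers summed to 371 and 114 TPM (Ucp1 at 0 in both), and the 7 red blood cell markers to 2445 and 425 TPM. The 10 T and B cell markers summed to 0.36 and 6.6 TPM (Cd3d, Cd8b1 and Rag1 at 0 in replicate 1). The 8 heart muscle markers summed to 6.20 and 100.5 TPM, of which Myh6 had 0.17 and 96.6 TPM. The higher sum rested on Myh6 and was not shared by the list, since Tnnt2 and Myl4 were lower in replicate 2. Myl7 and Nppb were at 0 in both libraries, and Nppa and Tnni3 in replicate 1. Mitochondrial genes took 9.39% and 17.5% of all counts. The part of these differences in the results below was not tested.

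Levels below come from the deposited gene table, which rests on alignments, unless a value is called reads-based, which marks another deposited table, estimated from the reads themselves. In muscle RNA the nuclear complex I genes stood near the top of the protein-coding genes. Their median level was 154 ± 25.5 TPM (SD, n = 2), or 136 TPM in replicate 1 and 172 in replicate 2. The 9942 detected nuclear protein-coding genes had medians of 7.29 and 7.31 TPM. Of the 38 members, 36 were among the 1000 highest genes in both libraries, and 26 lay between 100 and 400 TPM in both. The summed level was 6079 TPM and 7522 TPM. The order of the levels was similar in the libraries, with a Spearman rho of 0.95 across the 38 genes, which are not independent replicates and share their library and reference.

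Among the core subunits of the N module, Ndufv2, an iron-sulfur protein (ENSMUSG00000024099.15), was highest, at 215 TPM in replicate 1 and 278 in replicate 2. Ndufv1, which binds NADH and its flavin (ENSMUSG00000037916.14, chromosome 19 from 4007384 to 4012806 on the minus strand), stood at 112 and 175 TPM. Ndufs1, the largest subunit and the main carrier of iron-sulfur clusters (ENSMUSG00000025968.16), stood at 111 and 152 TPM. By alignment Ndufv1 and Ndufs1 thus lay within 1 TPM of each other in replicate 1, below Ndufv2 in both libraries. In the reads-based values they stood apart, at 223 and 340 TPM for Ndufv1 and 151 and 192 TPM for Ndufs1. Both were again below Ndufv2, at 464 and 579 TPM.

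In the Q module the core subunit Ndufs7, which lies at the ubiquinone pocket, stood at 160 and 217 TPM and Ndufs3, another core subunit, at 154 and 186 TPM. Ndufs8 (ENSMUSG00000059734.7, chromosome 19 from 3908863 to 3912774 on the minus strand), an iron-sulfur protein that hands electrons toward Ndufs7, stood at 71.0 and 107 TPM. In each library Ndufs8 lay below Ndufs3, and it had the lowest level of the 7 nuclear core subunits. The 7 core subunits together had medians of 154 and 186 TPM, beside 135 and 166 TPM for the 29 accessory subunits.

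The 7 accessory subunits of the N module lay close together, between 93.9 and 238 TPM. Ndufa12 was highest, at 208 and 238 TPM. By alignment Ndufs4, whose loss in mice gives a Leigh-like encephalopathy, was lowest, at 93.9 and 132 TPM. Between them stood Ndufv3, the small subunit beside Ndufv1 and Ndufv2, Ndufa6, an LYR-motif protein that binds the acyl carrier protein, Ndufa7, the zinc-binding Ndufs6, and Ndufa2, which has a thioredoxin-like fold. In the reads-based values Ndufa2 was lowest, at 156 and 145 TPM, beside 168 and 218 TPM for Ndufs4. Of the Q accessory subunits, Ndufa5 stood at 181 and 245 TPM, and Ndufa9, which binds NADPH, at 92.2 and 131 TPM.

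The membrane arm held both the highest and the lowest subunits of the complex. In its proximal part Ndufc1 (ENSMUSG00000037152.11, chromosome 3 from 51404677 to 51408988 on the minus strand), a small membrane subunit, stood at 381 and 403 TPM and Ndufa3, another, at 321 and 382 TPM. Ndufs5, an intermembrane space subunit with a twin-cysteine fold, was the lowest there by mean in the alignment-based table, at 95.3 and 96.5 TPM, but not in the reads-based values, at 254 and 229.8 TPM beside 125 and 159.6 TPM for Ndufc2. The other proximal members, Ndufa1, Ndufa8, Ndufa10, Ndufa11, Ndufa13 and Ndufc2, lay between 95.1 and 184 TPM.

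In the distal part Ndufb8, a subunit whose protein is often blotted as a sign of assembled complex I, stood at 303 and 381 TPM. Ndufb9, a second LYR-motif protein, stood at 290 and 379.7 TPM. Ndufb3 (ENSMUSG00000026032.8, chromosome 1 from 58586384 to 58595964 on the plus strand), a small membrane subunit, was the lowest member of the assembled complex, at 43.1 and 66.5 TPM. Ndufb4 stood at 58.2 and 72.8 TPM and Ndufb6 at 87.7 and 100.3 TPM. Ndufab1, the mitochondrial acyl carrier protein, which also serves fatty acid synthesis outside the complex, stood at 183 and 250.2 TPM. By alignment the levels of the complex thus ran from Ndufb3 to Ndufc1, apart from the pair of genes described next; in the reads-based values Ndufb3 was again lowest and Ndufb8 highest, at 691 and 739.6 TPM.

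The rule also took a pair of related genes. Ndufa4, named as a complex I subunit but now assigned to cytochrome oxidase (ENSMUSG00000029632.7, chromosome 6 from 11900292 to 11907497 on the minus strand), had the highest level of all 38 by alignment, at 445 and 566 TPM, and lay below Ndufb8 in the reads-based values, at 582 and 710.3 TPM. Its paralog Ndufa4l2, known as a gene induced by low oxygen (ENSMUSG00000040280.10, chromosome 10 from 127514967 to 127517154 on the plus strand), had the lowest, at 3.29 and 4.42 TPM from 84 and 119 counts. Without Ndufa4l2, the highest level was 10.3-fold the lowest in replicate 1 and 8.50-fold in replicate 2.

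**Figure D1:**
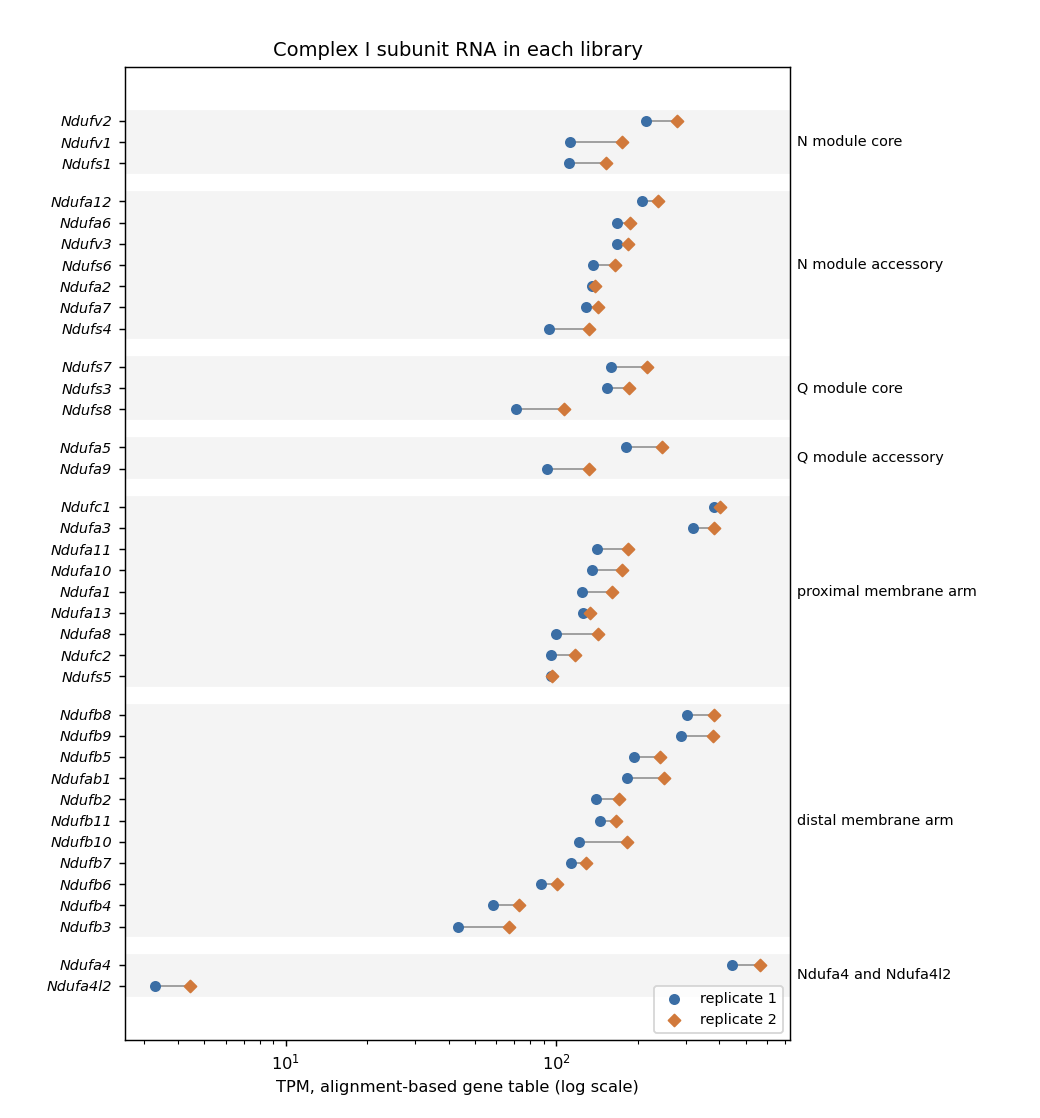
Level of 37 of the 38 genes in TPM on a log axis, from the alignment-based gene table, ordered by place in the complex, with replicate 1 as circles and replicate 2 as diamonds. Most members lie between 100 and 400 TPM, Ndufa4 is highest, Ndufa4l2 stands far to the left at 3.29 and 4.42 TPM, and every diamond lies to the right of its circle.

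Several of these levels rest on how reads were divided between a subunit gene and a near-identical copy. At 95% identity or more over at least 100 bases on the same strand, 13 copies were found for 11 members, and 10 of them, for 8 members, lie elsewhere in the genome. Copies took over 10% of the member's own counts for 3 genes: Ndufb4, Ndufs5 and Ndufa12. These values, and those of the copies, are therefore uncertain. Stretches of 60 coding bases from those genes and Ndufab1 show how little separates each from its processed pseudogene (an intronless copy of the spliced RNA). They are read 5′ to 3′ from the GENCODE M21 transcripts, and capitals mark the bases at which gene and copy differ.
Ndufb4, coding bases 1 to 60: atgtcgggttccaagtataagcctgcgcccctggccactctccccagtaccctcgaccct
Ndufb4c: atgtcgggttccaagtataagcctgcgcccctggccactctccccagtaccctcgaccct
Ndufs5, coding bases 51 to 110: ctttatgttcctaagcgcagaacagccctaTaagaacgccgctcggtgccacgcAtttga
BC002163: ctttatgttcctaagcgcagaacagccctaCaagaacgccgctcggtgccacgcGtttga
Ndufa12, coding bases 117 to 176: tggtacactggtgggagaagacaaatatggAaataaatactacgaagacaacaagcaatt
Gm15920: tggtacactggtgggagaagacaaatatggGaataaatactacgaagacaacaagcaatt
Ndufab1, coding bases 21 to 80: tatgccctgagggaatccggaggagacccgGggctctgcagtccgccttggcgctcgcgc
Gm4459: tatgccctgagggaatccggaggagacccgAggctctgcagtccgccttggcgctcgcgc

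Ndufb4 and Ndufb4c (chr15:73809507-73809896) had 0 mismatches over 390 aligned bases. In the gene table Ndufb4 had 904 counts in replicate 1 and 1263 in replicate 2, and the pseudogene had more, 1685 and 1797 counts (190 and 191 TPM). In the reads-based values Ndufb4 had 1584 and 1837 counts and Ndufb4c had 0. The level of Ndufb4 was 58.2 and 72.8 TPM in one table and 347 and 385 TPM in the other, the widest gap of any member. Over both libraries its reads-based TPM was 5.59-fold the alignment-based TPM, while its counts were 1.58-fold. Of the reads-based level, 320 and 363 TPM lay on the retained-intron transcript Ndufb4-202, of 465 bases. The coding Ndufb4-201 had 26.8 and 21.3 TPM there, and 16.1 and 24.2 TPM by alignment. The part of the copy in this gap was not tested. By gene level, the place of Ndufb4 among the lowest subunits held in the alignment-based table alone.

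Ndufs5 and its copy BC002163 (chr16:42955631-42955949) had 2 mismatches over 319 bases. The copy had 444 and 477 counts in the gene table, 35.8% and 35.9% of those of Ndufs5, and 0 in the reads-based table. Gm15920 (chr5:130188395-130188796), with 2 mismatches over 402 bases of Ndufa12, had 492 and 597 counts in the gene table and 376 and 437 in the reads-based table. Gm4459 (chr7:139659688-139660155), with 1 mismatch over 382 bases of Ndufab1, had 96.0 and 136 counts, and 327 and 430 in the reads-based table. Beside the gene table, the reads-based table thus gave more counts to the parent gene for Ndufb4, Ndufs5 and Ndufa12 and more to the copy for Ndufab1.

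**Figure D2:**
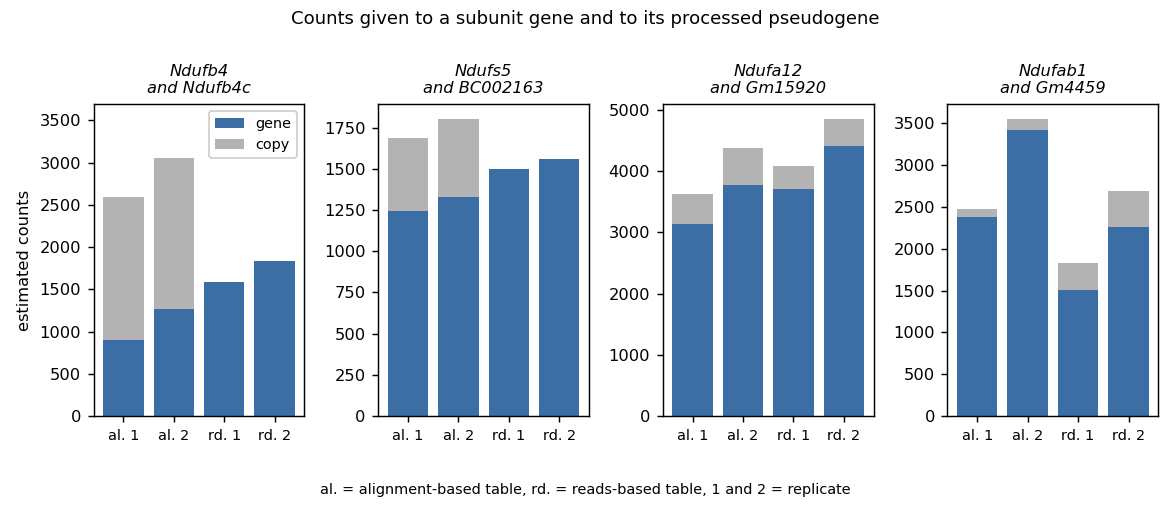
Estimated counts given to a subunit gene (blue) and its processed pseudogene (grey) as stacked bars for each table and replicate, in 4 panels with separate count axes starting at 0. The pseudogene takes the larger part of the alignment-based counts for Ndufb4 (1685 and 1797 counts) and none of the reads-based counts, while Ndufa12 keeps a grey part in both tables.

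A further gene outside the rule belongs to this family. Ndufb1-ps, annotated as a non-coding RNA in GENCODE M21, had 935 and 1247 counts and 70.9 and 87.7 TPM, which would place it among the lower subunits. Its reads-based level was 214 and 251 TPM. The pseudogenes Ndufa11b and Ndufab1-ps had 0 counts in both libraries, and Ndufs6b had 1.3 and 0. Exons of 17 members also share bases with another gene, 15 of them with a gene on the opposite strand; whether the counting used the strand is not given in the sources used here. The longest such share was Ndufb6, with 39.0% of its exon bases opposite Smim27, which had 154 and 150 counts. Ndufa13 had 30.0% opposite Tssk6, which had 0 and 2 counts.

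All 38 members had a higher level in replicate 2 in the gene table. Ratios between the libraries were taken from counts scaled by TMM, which sets the bulk of genes to no change, and are given as log2 of replicate 2 over replicate 1. The median over members was 0.37, with values from 0.03 to 0.63 and the middle 50% from 0.21 to 0.43. All genes at a mean count of 100 or more, 9996 of them, had a median of -0.01 and a middle 50% from -0.16 to 0.17. All 38 ratios were above 0, where 48.0% of all genes were; 37 were with scaling by total count and 36 from the reads-based counts. A ratio over 25% higher was found for 20 members, where 13.8% of all genes had one, and one over 20% lower (the same step downward) for 0 members, where 10.8% of all genes had one. Over 2-fold higher lay 0 members and 2.09% of all genes. The difference was thus shared and modest, with each library a single sample. In bulk tissue, fewer cells of a type and less RNA per cell cannot be told apart.

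Ndufb3 had the largest ratio, from 875 counts in replicate 1 and 1425 in replicate 2, a log2 ratio of 0.63 (1.43- to 1.69-fold, 95% exact Clopper-Pearson interval, here and below for counting error only). Ndufs8 followed, from 1539 and 2470 counts, with 0.61 (1.44- to 1.63-fold). Ndufb10, a twin-cysteine subunit on the intermembrane space side, had 121 and 182 TPM and a log2 ratio of 0.60 (1.44- to 1.60-fold). The lowest core subunit and the lowest subunit of the complex were thus the pair with the largest ratios, although across the 38 genes the ratio and the level had a Spearman rho of only -0.23. Ndufa8, another twin-cysteine subunit, had 99.6 and 143 TPM and a log2 ratio of 0.53, and Ndufv1 also had 0.53 (1.39- to 1.50-fold).

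At the other end, Ndufs5 had 1242 and 1327 counts and a log2 ratio of 0.03, with an interval of 0.942- to 1.10-fold. Ndufa2 had 135 and 139 TPM and a log2 ratio of 0.05 (0.971- to 1.10-fold). For these 2 of 38 genes the interval included 1, so a difference was not detectable at this depth, and the reads-based counts gave ratios of -0.004 and -0.03. Ndufa13, known also as GRIM19, had 125 and 133 TPM and 0.10, Ndufc1 0.11 and Ndufv3, with 168 and 183 TPM, 0.15. The intervals of the other 36 members lay above 1, and none lay below.

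The 7 core subunits had a median log2 ratio of 0.44, with 5 of 7 over 25% higher, beside 0.31 and 13 of 29 for the accessory subunits. The core subunits also had longer transcripts, with a median of 989 bases beside 608. Across the 38 genes the ratio and transcript length had a Spearman rho of 0.39, and the part of length in this gap was not tested. In the N module the cores and the accessory subunits had separate medians. Ndufs1 had 0.44 (1.31- to 1.39-fold) and Ndufv2 0.39 (1.27- to 1.36-fold), so that all 3 cores with Ndufv1 were over 25% higher and their median was 0.44. The 7 accessory subunits had a median of 0.17, and only Ndufs4, with 0.46, was over 25% higher. In the Q module Ndufs7 had 0.45 (1.31- to 1.43-fold) and Ndufs3 0.29 (1.17- to 1.28-fold). The Q accessory subunits Ndufa9 and Ndufa5 had 0.51 and 0.41.

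The proximal membrane arm had a median log2 ratio of 0.32 with 4 of 9 over 25% higher, and the distal arm 0.39 with 6 of 11. By arm, the 16 matrix members had 0.34 with 8 over 25% higher and the 20 membrane members 0.35 with 10, so the arms lay close together while members within each ranged widely. Whether modules differ was not tested, since their members come from the same libraries. For Ndufb4 the ratio depended on its copy, with a log2 ratio of 0.41 alone, 0.17 when the counts of Ndufb4c were added and 0.16 in the reads-based table. For Ndufs5 the ratio with its copy added was again 0.03, and for Ndufa12 it was 0.20 either way.

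**Figure D3:**
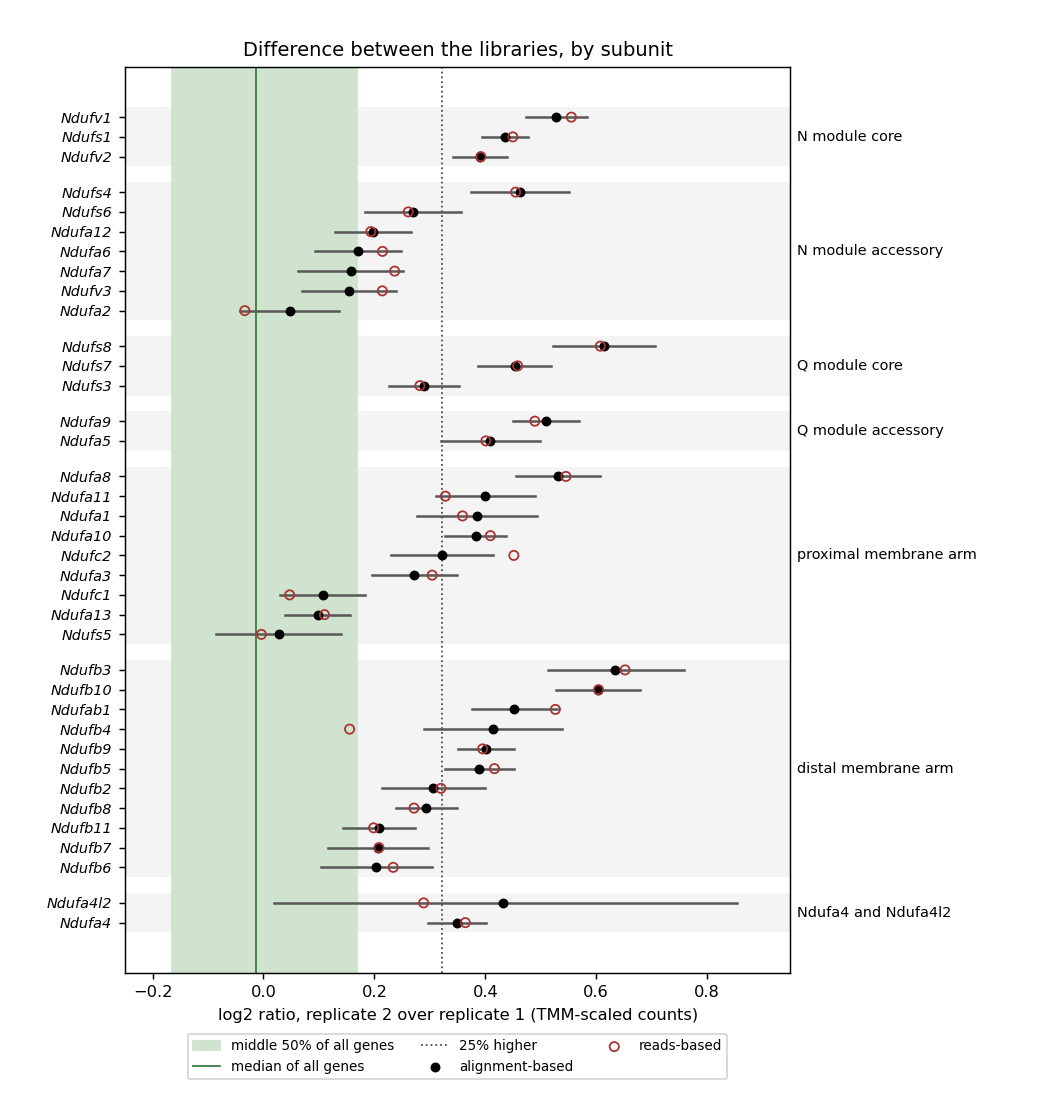
Log2 ratio of replicate 2 over replicate 1 from TMM-scaled counts for 37 of the 38 genes, with filled points for the alignment-based counts, bars for the 95% counting interval, open circles for the reads-based counts, and the middle 50% of all genes shaded. Most points lie to the right of the shading, Ndufs5 and Ndufa2 lie at 0.03 and 0.05, and the open circle of Ndufb4 lies apart from its filled point.

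Other genes of the pathway showed how far the difference reached. The 7 complex I subunits encoded by mitochondrial DNA summed to 17388 and 31838 TPM and had a median log2 ratio of 0.90 by alignment, from 0.79 for mt-Nd1 to 0.99 for mt-Nd4, all 7 over 25% higher. All 7 lay above the highest nuclear ratio of 0.63 in that table. From the reads-based counts, a comparison chosen after seeing the data, the median was 0.77 with 5 of 7 over 25% higher. There mt-Nd3 had 6276 and 7433 counts and 0.19, mt-Nd4l had 84 and 104 counts and 0.25, and mt-Nd6 had 0.62, all within the nuclear range. These 3 ratios are uncertain, since by alignment mt-Nd3 had 16148 and 29580 counts, and mt-Nd4l, which shares bases with mt-Nd4, 18838 and 37673. The complex is held together during its making by assembly factors, which are not part of the finished complex. Of 17 listed, 16 had a matching row, at medians of 10.8 and 12.2 TPM. Their median log2 ratio was 0.18, with 14 of 16 higher in replicate 2 and 4 over 25% higher, from -0.23 for Ndufaf5 to 0.62 for Ndufaf4. The assembly factors thus stood at lower levels than the subunits, with a range of ratios that reached below 0.

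The 4 subunits of complex II (succinate dehydrogenase) had a median log2 ratio of 0.58, from 0.39 for Sdha to 0.77 for Sdhb, and all 4 were over 25% higher. Complex III had 0.43 with 6 of 9 over 25% higher (8 from the reads-based counts), from 0.25 for Uqcrh to 0.70 for Cyc1. Complex IV, cytochrome oxidase, had 0.50 with 12 of 13 (10 from the reads-based counts), from 0.26 for Cox8b to 0.85 for Cox7a1. Complex V, the ATP synthase, had 0.43 with 10 of the 14 that passed a mean count of 100, from 0.19 for Atp5o to 0.62 for Atp5g3. The 4 nuclear lists beside complex I were all higher in replicate 2 in every member counted. Ndufa4, counted by symbol among the 38 genes but part of complex IV, had 0.35 (1.23- to 1.32-fold).

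**Figure D4:**
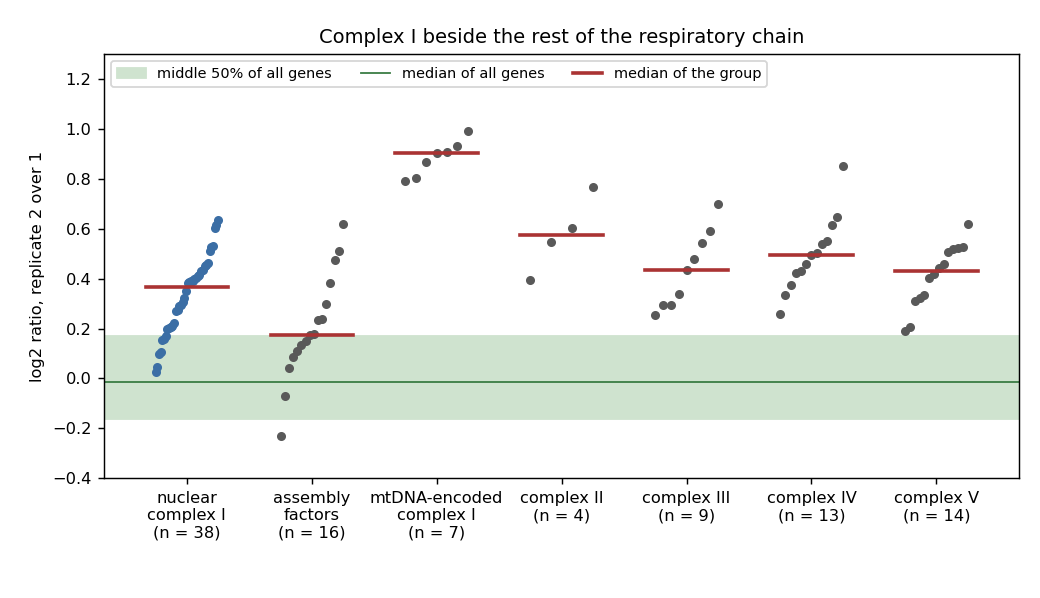
Log2 ratio of replicate 2 over replicate 1 for each gene of the nuclear complex I set, the assembly factors, the mitochondrially encoded subunits and complexes II to V, with the median of each as a red line and the middle 50% of all genes shaded. In these alignment-based counts the mitochondrially encoded subunits form the highest group at a median of 0.90, and the assembly factors, at 0.18, are the group whose points reach below 0.

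The spike-in RNAs gave a different zero point. Scaled to their total, the median of all genes was 0.38 rather than -0.01, a shift of 0.39 that applies to every gene alike, so 92.3% of all genes were higher in replicate 2 and 60.3% were over 25% higher. On that scale the median of the 38 members was 0.76 and all 38 were over 25% higher. Their distance from the median of all genes was the same on either scale.

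The genes were short. Their median transcript length was 667 bases, from 323 to 2489, and 32 of 38 were under 1000 bases, beside a median of 2385 and 9.62% under 1000 for the detected protein-coding genes. In the gene table the length was shortened by 99 bases in both libraries to give the effective length, and in the reads-based table by 332 and 339 bases. Summed over transcripts, the reads-based TPM was a median of 1.65-fold the alignment-based TPM for the members, from 0.834 for Ndufa3 to 5.59 for Ndufb4, beside 1.48-fold for all detected protein-coding genes. Counts moved less, with a median ratio of 0.876 and 26 of 38 within 25%. Nuclear protein-coding genes held 45.1% and 40.7% of the alignment-based TPM, and the 7SL RNAs Rn7s1 and Rn7s2 34.0% and 27.7%. Rescaled to nuclear protein-coding genes alone, the median member stood at 362 TPM by alignment and 388 TPM from the reads. The order of the members was less alike between tables (Spearman rho 0.82) than between libraries, and the ratio between libraries had a rho of 0.89 between tables.

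The 38 genes had 189 annotated transcripts, and 6 genes had a single one. In the alignment-based transcript table the same transcript was the highest of its gene in both libraries for all 38 genes, and in the reads-based table for 36, with Ndufa3 and Ndufv1 as the exceptions. By alignment, protein-coding transcripts held over 90% of the TPM of 23 genes in both libraries, and the share differed between libraries by a median of 0.310 percentage points and at most 7.75. Ndufv3, for which a short and a long coding form are known, was nearly all the short form: Ndufv3-202, of 493 bases, held 98.8% and 98.3% of its TPM, and Ndufv3-201, of 1582 bases, 0.708% and 1.36%. The reads-based table gave 98.6% and 98.4% for Ndufv3-202, so this share held in both tables.

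For 11 genes the next transcript held at least 20% of the TPM in both libraries, among them Ndufa10, Ndufa5, Ndufab1, Ndufb4, Ndufb5, Ndufb8, Ndufc1, Ndufs1, Ndufs3 and Ndufs7. Ndufs1 was split between coding forms, with 56.1% and 58.7% for Ndufs1-201 and 35.3% and 30.1% for Ndufs1-203. Ndufb5 was likewise split, with 65.8% and 66.3% for Ndufb5-203 and 21.8% and 25.9% for Ndufb5-204. Ndufs7 and Ndufs3 had non-coding transcripts of 27.6% and 28.2% (Ndufs7-206) and of 28.3% and 26.8% (Ndufs3-204). In Ndufb8 the retained-intron transcript Ndufb8-202 held 20.8% and 25.5%.

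Coding transcripts held under 50% of the TPM in both libraries for 7 genes. The share over all genes was not computed for this or the other counts of genes by transcript make-up. Whether they are particular to the members is therefore not known. In Ndufa3, among the highest members by gene level, they held 6.47% and 6.24%, while Ndufa3-204, of 343 bases and annotated as a target of nonsense-mediated decay, held 93.1% and 93.5%. In Ndufs4 they held 12.3% and 10.5%, with 73.2% and 62.5% for the decay target Ndufs4-204. In Ndufc1 they held 29.2% and 29.9%, with 66.3% and 64.6% for the retained-intron transcript Ndufc1-203. The gene levels of Ndufa3, Ndufs4 and Ndufc1 were thus assigned mostly to transcripts not annotated as protein-coding.

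Coding shares were also low for Ndufb4 (27.6% and 33.2%), where the retained-intron transcript Ndufb4-202 held 71.7% and 65.9%, and for Ndufab1 (29.3% and 34.3%), where Ndufab1-205 and Ndufab1-208 did. They were 34.1% and 31.0% for Ndufa10 and 33.9% and 40.6% for Ndufa5, in which the non-coding Ndufa5-204 held 65.6% and 59.0%. These assignments were only partly shared by the reads-based table. There 18 genes had such a split make-up, 6 of them the same genes, and 8 had under 50% coding, 6 of them the same. The highest transcript was the same in both tables for 23 of the 32 genes with more than 1 transcript. Ndufa3-204 held 53.5% and 13.5% in the reads-based table, Ndufc1-203 0% and 0% while the non-coding Ndufc1-202 held 96.8% and 96.9%, and Ndufs4-204 55.2% and 51.9%. Ndufa7 went the other way, with its coding transcript Ndufa7-201 at 95.1% and 94.3% by alignment and 11.6% and 14.1% from the reads.

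**Figure D5:**
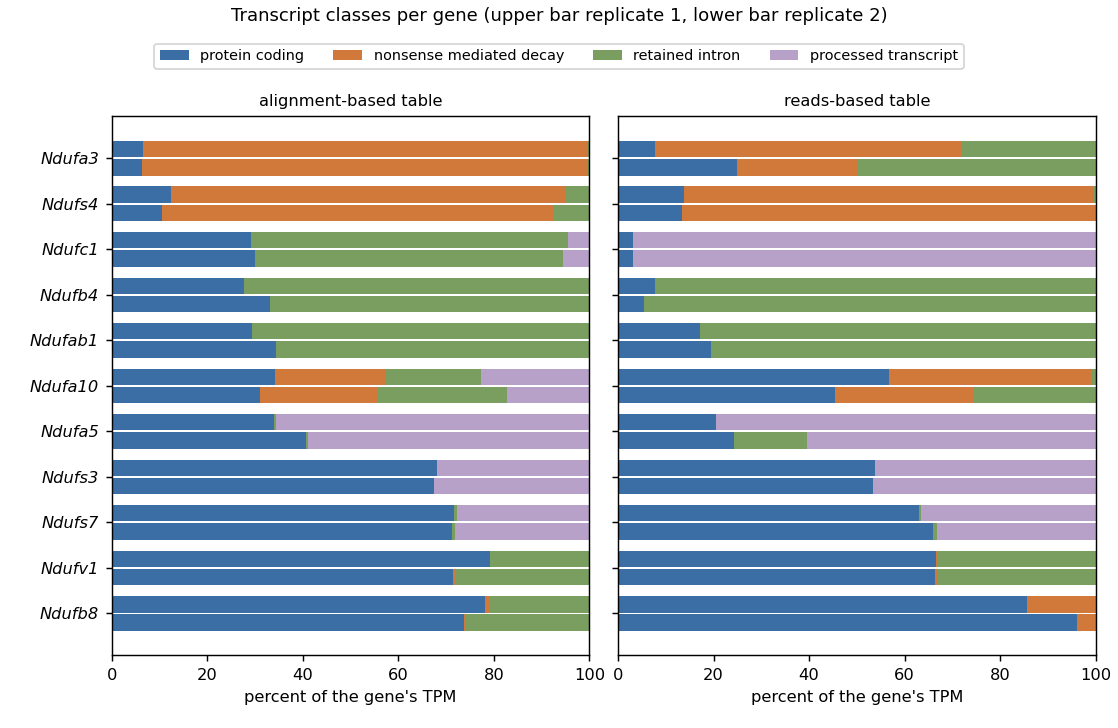
Percent of each gene's TPM held by each annotated class of transcript, for 11 genes whose protein-coding share averaged under 80% by alignment, with replicate 1 as the upper and replicate 2 as the lower bar of each pair and the alignment-based and reads-based tables side by side. Paired bars are alike within the alignment-based table, where Ndufa3 is 6.47% and 6.24% coding, and the panels differ for Ndufa3 and Ndufc1.

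The start regions of the members were also compared with those of all genes. RefSeq promoter windows (GRCm38.p6, 250 bases before to 50 after the start) were matched for 33 of the 38 genes, on 15 chromosomes for the whole set. The upstream parts of 3 of them are shown, for the genes with the largest (Ndufb3, Ndufs8) and the smallest (Ndufs5) log2 ratio. They are written 5′ to 3′ on the gene's strand, with capitals for matches to the motifs named below.
Ndufb3, chr1:58586147-58586396, plus strand: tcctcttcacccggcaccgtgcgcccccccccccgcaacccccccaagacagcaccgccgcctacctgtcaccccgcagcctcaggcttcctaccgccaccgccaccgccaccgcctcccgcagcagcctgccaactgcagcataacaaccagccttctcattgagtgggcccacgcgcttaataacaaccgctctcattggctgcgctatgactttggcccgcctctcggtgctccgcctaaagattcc
Ndufs8, chr19:3912775-3913024, minus strand: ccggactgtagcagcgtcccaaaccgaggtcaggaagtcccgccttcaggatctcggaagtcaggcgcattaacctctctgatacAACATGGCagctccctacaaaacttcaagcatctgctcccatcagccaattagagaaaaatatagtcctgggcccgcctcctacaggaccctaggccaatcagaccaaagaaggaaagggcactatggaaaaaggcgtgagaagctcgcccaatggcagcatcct
Ndufs5, chr4:123718187-123718436, minus strand: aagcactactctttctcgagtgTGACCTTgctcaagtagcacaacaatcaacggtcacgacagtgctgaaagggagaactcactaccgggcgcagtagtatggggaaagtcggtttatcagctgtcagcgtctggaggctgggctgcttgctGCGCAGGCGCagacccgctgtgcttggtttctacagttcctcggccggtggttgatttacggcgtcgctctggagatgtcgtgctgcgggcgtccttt

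Motifs of factors known to act on respiratory chain genes were searched on both strands of the whole 300-base window. The NRF1 motif (GCGCA, then any base, then GCGC) was found in 7 of 33 members (21.2%) and 5.19% of all 27025 genes with a window: Ndufa11, Ndufa5, Ndufa6, Ndufa8, Ndufb4, Ndufs5 and Ndufs6. The YY1 motif (AANATGGC, where N is any base) was found in 12 of 33 (36.4%) and 6.96% of all genes. In 7 of those 12 it read AAGATGGC, the 8 letters starting 22 to 38 bases after the start: Ndufa3, Ndufa9, Ndufb8, Ndufc1, Ndufs4, Ndufs6 and Ndufs7. The motif of the ETS factor GABPA (CCGGAAG) was found in 4 (12.1%, 9.93% of all), that of the ERR nuclear receptors (AAGGTCA) in 3 (9.09%, 5.38% of all) and the SP1 motif (GGGCGG) in 15 (45.5%, 38.2% of all).

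At least 1 of the first 4 of these factors' motifs, SP1 aside, was found in 22 of the 33 members with a window and in 23.9% of all genes. In Ndufs5 the ERR motif lay 228 bases and the NRF1 motif 98 bases before the start, and in Ndufs8 the YY1 motif lay 165 bases before it, with a GABPA motif 15 bases after it. The window of Ndufb3 held no match. Whether these matches bear on the ratio between the libraries was not tested. The windows of the members had a median GC content of 59.0%, beside 52.8% for all genes. A match describes these letters only.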

How the data were processed

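For each library the authors deposited alignment-based tables of genes and of transcripts, and a reads-based table of transcripts alone. The expected counts in the alignment-based tables and the estimated counts in the reads-based table are as deposited, not normalised and not always whole. TPM values are as deposited, scaled over all rows, spike-ins included. Per the file headers the alignment-based tables also hold a posterior SD of each count, a score for the certainty of assignment (0 in both libraries for 27 of 38 members, over 5 counts for 4), and the percent of each gene held by each transcript. Deposited descriptions name mm10 and GENCODE M21; the quantification program is not given in the sources used here.

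The gene table had 81881 rows, of which 55536 were genes. The 26248 tRNA rows (3 and 0 counts) and the spike-in rows (0.646% and 0.479% of counts) were left out of levels and ratios. Counts were scaled by TMM in edgeR 4.0.16 (R 4.3.3) with a prior count of 0.5, and by DESeq2 1.42.0 size factors, total count and spike-in total as alternatives. Members at a mean count of 10 or more entered the median ratio and those at 100 or more the counts past a 25% difference, which all 38 passed. Intervals are exact (Clopper-Pearson) at 95% and cover counting error only. Transcript classes and coordinates came from GENCODE M21, copies from blastn 2.17.0 on its transcripts, and promoters from RefSeq (GRCm38.p6); 5 members had no matched window. Other steps used Python 3.11.15 with pandas 2.3.3, numpy 2.4.6, matplotlib 3.10.9 and scipy 1.17.1. The calculation of the ratios was tested on simulated counts with counting error alone. That setting has no broad difference in tissue make-up, so it does not bear on the zero point of these libraries. Members, gene lists, markers and motifs were chosen with earlier results of these data known. Every member may be named; per-library values are given for the core subunits, the 5 highest and lowest levels, the 5 largest and smallest ratios, copies and genes with a split transcript make-up, and for other lists the extremes. Ndufa6, Ndufa7, Ndufs6, Ndufa12, Ndufa9, Ndufc2, Ndufs4, Ndufb1-ps, mt-Nd3 and mt-Nd4l were described beyond that after their values were seen. The values of 1 member and 1 marker gene are not reported here, and they enter only medians, sums and counts.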

Additional observations from a re-analysis of the deposited data

How the results depend on the processing

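With 2 libraries and no test, these results describe 1 pair of samples. The median member level of 154 TPM became 362 TPM when rescaled to nuclear protein-coding genes, 269.8 TPM in the reads-based table, and 388 TPM with both (chosen after seeing the data); it was 136 to 172 TPM with 1 library left out. The median log2 ratio of 0.37 was 0.39 with DESeq2 size factors, 0.32 by total count, 0.32 as a TPM ratio, 0.32 from the reads-based counts and 0.76 by spike-ins. The 20 members over 25% higher became 38 by spike-ins and 0 at a 2-fold limit, and 19 to 22 under the other settings. The 11 genes with a split transcript make-up became 18 in the reads-based table, 17 at a 10% limit, and 12 without either replicate. Detection held for 37 of 38 members at 10 TPM. From the reads-based counts the log2 ratio turned to -0.034 for Ndufa2 and to -0.0037 for Ndufs5, both still inside their counting intervals. Of the other ratios, 34 also stayed inside theirs and 2, for Ndufc2 and Ndufb4, did not. By contrast, 35 of 38 TPM levels moved by more than the spread between libraries. The cause of these moves was not tested. No paired analysis was possible because there is 1 group of 2 libraries. Depth limits Ndufa4l2 most, with 84 and 119 counts.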
